A study of Cricetiscus sungorus with 216 samples.

Results

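The neuropeptides and gonadal steroid receptors of the reproductive axis were followed as 7 genes through the circannual interval timer of male Djungarian hamsters: *Npvf*, *Kiss1*, *Gnrh1*, *Tac2*, *Pdyn*, *Esr1* and *Pgr*. They were found by their symbols in the tables of the mediobasal hypothalamus (MBH), the dorsomedial hypothalamus (DMH) and the paraventricular nucleus (PVN), which together list 30171 symbols. All 7 are in the MBH table of 20156 symbols. The DMH table of 21821 symbols holds 6 of them, with *Kiss1* not analysed here, and the PVN table of 18960 symbols also holds 6, with *Tac2* not analysed here.

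Adult males were either kept in long photoperiod (LP, labelled LD) or killed after 4, 8, 12, 16, 20, 24, 28 or 32 weeks of short photoperiod (SP, labelled SD), with 6 different hamsters in each of the 9 groups and no treatment other than photoperiod in the labels. Each region came from bilateral 1 mm punches of the same 54 hamsters, so that a library is a mixture of all cells under the punch, and fewer cells of a type cannot be told apart from less RNA per cell. The weeks were also pooled into early SP (4 and 8 weeks, n = 12 hamsters), mid SP (12, 16 and 20 weeks, n = 18) and late SP (24, 28 and 32 weeks, n = 18), which stand for the induction, maintenance and recovery of the winter state. Levels are given as CPM, the estimated counts of all isoforms of a gene, added and divided by the library total after TMM scaling, on the usual per-million scale.

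The pulsatile release of gonadotropin-releasing hormone, the product of *Gnrh1*, drives the pituitary gonadotropins, and its cell bodies lie mainly in the preoptic area, in front of the regions sampled here. Neurons of the arcuate nucleus, within the MBH, make kisspeptin (*Kiss1*), which excites GnRH neurons, together with neurokinin B (*Tac2*) and dynorphin (*Pdyn*), which act on the same neurons with opposite sign to shape the pulses, and they carry the estrogen and progesterone receptors (*Esr1*, *Pgr*) through which gonadal steroids feed back. RFamide-related peptide, the product of *Npvf*, is made in neurons of the dorsomedial hypothalamus, and in seasonal mammals both *Npvf* and *Kiss1* are known to respond to photoperiod.

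All of these genes were sparse, and how often each was read at all is the first result. In the MBH, *Pdyn* and *Tac2* had at least 1 count in 51 of 54 libraries each, *Pgr* in 41, *Npvf* in 39, *Esr1* in 31, *Kiss1* in 28 and *Gnrh1* in 5. In the DMH, *Tac2* was read in 27 of 54 libraries, *Pdyn* in 20, *Pgr* in 15, *Npvf* in 9, *Esr1* in 8 and *Gnrh1* in 1. In the PVN, *Pdyn* was read in 43 of 54 libraries, *Pgr* in 22, *Npvf* in 16, *Esr1* in 10, *Gnrh1* in 9 and *Kiss1* in 2. All other libraries held 0 counts of the gene, where a low level and a level of 0 cannot be told apart.

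**Figure D1:**
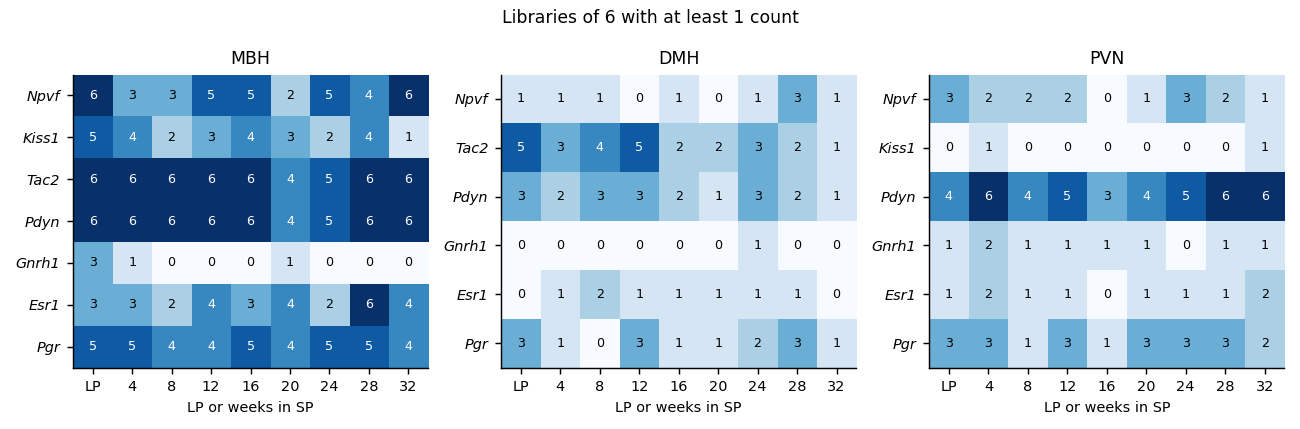
Number of libraries, of 6 per group, with at least 1 count of each gene in the MBH, DMH and PVN, in LP and after 4 to 32 weeks of SP. *Tac2* and *Pdyn* were read in 4 to 6 libraries of every MBH group, whereas no gene of the DMH was read in all 6 libraries of a group.

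Adding isoforms did not give a number of reads for every gene. *Npvf* has 1 isoform in each table, so that its counts, 299 of them in the MBH and 61 in the DMH, are not added. *Kiss1* has 6 isoforms in the MBH table, all equal in 20 of the 28 libraries that read it, and its 338 added counts stood against 61 for the isoform with the highest total. The 2 isoforms of *Tac2* were equal in all 51 MBH libraries that read it. *Esr1* also has 6 isoforms in the MBH, of which the highest had 60 counts.

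Depth differed widely between libraries. The MBH libraries held 5996 to 13208361 counts (median 1422834), those of the DMH 149289 to 9084072 (median 1626423.5) and those of the PVN 159 to 998245 (median 168902.5). In the MBH 1 library and in the PVN 2 libraries were under 10000 counts. In the MBH the arcuate markers *Pomc*, *Cartpt*, *Agrp* and *Npy* were read in 54, 54, 53 and 52 libraries, but *Ghrh* in only 11. The summed level of 6 pars tuberalis and pituitary markers was 581 to 2203 CPM in LP. In SP it had a median of 75.9 CPM in early, 69.7 in mid and 114.8 CPM in late SP (at most 334, 284.5 and 1504 CPM). The RNA of these pars tuberalis and pituitary markers thus moved with photoperiod beside every MBH comparison with LP. Less of this tissue and less RNA per cell cannot be told apart, and the part of either in the results was not tested. The dorsomedial markers *Grp* and *Ppp1r17* were read in only 17 and 15 of the DMH libraries, against 24 and 49 of the MBH libraries. A further dorsomedial marker, *Cck*, was read in 44 of the DMH and 51 of the MBH libraries. The summed level of 3 neuronal markers had a median of 62.8 CPM in the DMH and 439.7 CPM in the MBH. Of the PVN markers, *Trh* was read in 51 and *Sim1* in 14 PVN libraries, and *Avp*, *Oxt* and *Crh* of the PVN were not analysed here.

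*Npvf*, the precursor of the RFamide-related peptides, was read in all 6 MBH libraries of LP and all 6 at 32 weeks SP, and in 2 to 5 of 6 at the other weeks. Its mean was 2.56 ± 2.10 CPM in LP, 1.77 ± 2.37 CPM by week 4, 1.72 ± 2.69 CPM by week 8, 1.93 ± 1.73 CPM by week 12 and 1.82 ± 1.69 CPM by week 16 of SP (SD over 6 hamsters, as for all groups of a single week). Thereafter it was 0.605 ± 1.19 CPM by week 20, 2.04 ± 1.96 CPM by week 24, 2.79 ± 3.77 CPM by week 28 and 6.14 ± 6.25 CPM by week 32. At 20 weeks 4 libraries were at 0 and the highest was at 2.97 CPM, whereas the 32-week libraries ran from 1.21 to 18.2 CPM with a median of 3.91 and the LP libraries from 0.579 to 6.39 CPM with a median of 1.98. The 32-week and LP groups overlapped, and the library at 18.2 CPM was replicate 5.

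Against LP, *Npvf* in the MBH was not separated from 0 change in any phase, with log2 fold changes of -0.41 (standard error 0.78) in early SP, -0.79 (0.74) in mid SP and 0.54 (0.75) in late SP and adjusted p of 0.996 to 1 in edgeR's quasi-likelihood test. From mid to late SP its mean went from 1.45 ± 1.59 to 3.66 ± 4.49 CPM (SD, n = 18 hamsters each), and 4 late libraries lay above every mid library. This difference had a permutation p of 0.0398 (2-sided, 100000 permutations, not adjusted) and a log2 fold change of 1.33 (standard error 0.55) that had an adjusted p of 0.668 by edgeR. Leaving out 1 library at a time, the permutation p rose above 0.05 in 15 of 36 cases. It was highest, 0.0794, without replicate 5 of 32 weeks, where the late mean was 2.80 CPM. On the log2(CPM + 1) scale the permutation p was 0.0557. Replicate 5 of 32 weeks was among the 6 MBH libraries with at least 100 CPM of *Pmch*, a lateral hypothalamic marker. All 6 read *Npvf*, but so did 33 of the 48 libraries below this threshold, which was chosen after the values were seen. *Hcrt*, another such marker, was read in 32 of the 39 MBH libraries with *Npvf*. The part of lateral hypothalamic RNA in the difference between mid and late SP was not tested.

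*Kiss1*, the excitatory kisspeptin peptide, had group means from 0.175 to 6.28 CPM in the MBH. It was read in 5 of 6 LP libraries, from 0 to 10.4 CPM with a median of 2.80, and in 4 of 6 at 4 weeks SP (mean 2.91 ± 2.85 CPM). At 8 weeks it was read in 2 libraries with 1 count each, and no library exceeded 0.534 CPM. The mean was 3.16 ± 5.36 CPM by week 12 (3 libraries read), 6.28 ± 6.10 CPM by week 16 (4), 4.02 ± 5.06 CPM by week 20 (3), 1.54 ± 2.44 CPM by week 24 (2) and 4.87 ± 5.81 CPM by week 28 (4). At 32 weeks 1 library had 1 count, at 1.21 CPM, and the other 5 were at 0.

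*Kiss1* thus had its 2 lowest means at 8 and 32 weeks SP, and both groups overlapped LP, in which replicate 1 was at 0. Exact permutation tests against the LP mean of 3.69 ± 3.70 CPM gave p = 0.0152 at 8 weeks (0.175 ± 0.271 CPM) and p = 0.0152 at 32 weeks (0.202 ± 0.494 CPM; 2-sided, n = 6 hamsters each, not adjusted), where the smallest p that 6 against 6 allows is 0.00216. Both stayed below 0.05 whichever of the 12 libraries was left out (exact p of at most 0.0325 and 0.0303). They did not with the highest isoform alone, where the exact p was 0.0541 and 0.0866. Over the isoforms 42 counts in LP stood against 2 at 8 weeks and 1 at 32 weeks, but for the highest isoform 8 stood against 2 and 1. The pooled level of that isoform at 8 weeks was 0.304 times that in LP, with an exact 95% interval for counting error of 0.0314 to 1.52, and at 32 weeks 0.117 times, with an interval of 0.00263 to 0.870. In edgeR's test the adjusted p of *Kiss1* was 0.749 at 8 weeks and 0.759 at 32 weeks.

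No change of *Tac2*, which encodes neurokinin B, was detected. Its means ran from 7.61 ± 3.72 CPM by week 32 to 13.95 ± 8.75 CPM by week 24, with 10.09 ± 5.58 CPM in LP, and single libraries ran from 0 to 24.8 CPM. By phase it was at 10.4 ± 4.96 CPM in early, 11.3 ± 7.24 in mid and 10.6 ± 6.25 CPM in late SP. On the log2 scale the change from LP was 0.07 (standard error 0.43), 0.30 (0.41) and 0.15 (0.41) in these phases, and edgeR's test gave each an adjusted p of 1. Changes of the size of these errors were not detectable at this depth.

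*Pdyn*, the precursor of dynorphin, was at 15.15 ± 9.15 CPM in LP and had its highest mean at 12 weeks, 25.2 ± 11.5 CPM, and its lowest at 24 weeks, 10.9 ± 8.33 CPM. The 12-week libraries ran from 7.40 to 36.9 CPM with a median of 27.7, and the LP libraries from 2.69 to 27.1 CPM with a median of 16.9, so that the groups overlapped. By phase it moved from LP by -0.11 (standard error 0.38) in early, 0.35 (0.36) in mid and 0.06 (0.36) in late SP on the log2 scale. In edgeR's test its change at 12 weeks was 0.69 (standard error 0.44) on the log2 scale with an adjusted p of 0.995.

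*Gnrh1* reached 9 counts in the whole MBH table, in 5 of 54 libraries. In LP 3 of 6 libraries held 1, 1 and 2 counts, a mean of 0.331 ± 0.423 CPM. In SP 1 library at 4 weeks held 4 counts (3.77 CPM) and 1 at 20 weeks held 1 count, and the other 46 SP libraries were at 0. Exact permutation tests against the 6 LP hamsters gave p = 0.0184 for mid SP (0.0275 CPM, n = 18) and p = 0.00988 for late SP (2-sided, not adjusted), where 0 of 18 libraries had a count, which allows a late level of up to 0.0877 CPM (3 counts over the group). With the highest isoform the exact p was 0.0988 and 0.0543, and for mid SP it was 0.0734 without replicate 3 of LP, where the LP mean was 0.2235 CPM. In edgeR's test the adjusted p was 0.632 in mid and 0.241 in late SP.

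*Esr1*, the estrogen receptor alpha, was read in 3 of 6 LP libraries, at 4.78, 5.22 and 11.5 CPM, while the other 3 were at 0. Its mean was 3.58 ± 4.58 CPM in LP, 1.97 ± 2.71 CPM by week 4 and 0.175 ± 0.271 CPM by week 8, where 2 libraries held 1 count each. It was between 1.01 ± 0.913 and 1.25 ± 1.49 CPM from 12 to 20 weeks, 1.08 ± 1.71 CPM by week 24, 3.945 ± 4.63 CPM by week 28 and 1.51 ± 1.60 CPM by week 32. At 28 weeks all 6 libraries read it, from 0.531 to 12.0 CPM with a median of 1.81. Against LP, mid SP was at 1.16 ± 1.18 CPM (n = 18; exact permutation p = 0.0399, 2-sided, not adjusted), which became 0.318 without replicate 1 of LP, where the LP mean was 2.00 CPM, and 0.272 on the log2(CPM + 1) scale. In edgeR's test the adjusted p was 0.749 at 8 weeks and 0.900 to 1 in the 3 phases.

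*Pgr*, the progesterone receptor, which estrogen is known to induce, had 1.98 ± 1.23 CPM in LP, its lowest mean at 12 weeks, 0.845 ± 0.791 CPM, and its highest at 28 weeks, 2.54 ± 1.78 CPM. It was read in 4 or 5 of 6 libraries in every group and never exceeded 5.40 CPM. By phase it was at 1.28 ± 1.34 in early, 1.13 ± 1.23 in mid and 1.81 ± 1.47 CPM in late SP, with exact permutation p of 0.306, 0.159 and 0.801 against LP (n = 6 LP hamsters). *Esr1* and *Pgr* both had their highest mean at 28 weeks, and no difference from LP was detected there by edgeR (adjusted p of 1).

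**Figure D2:**
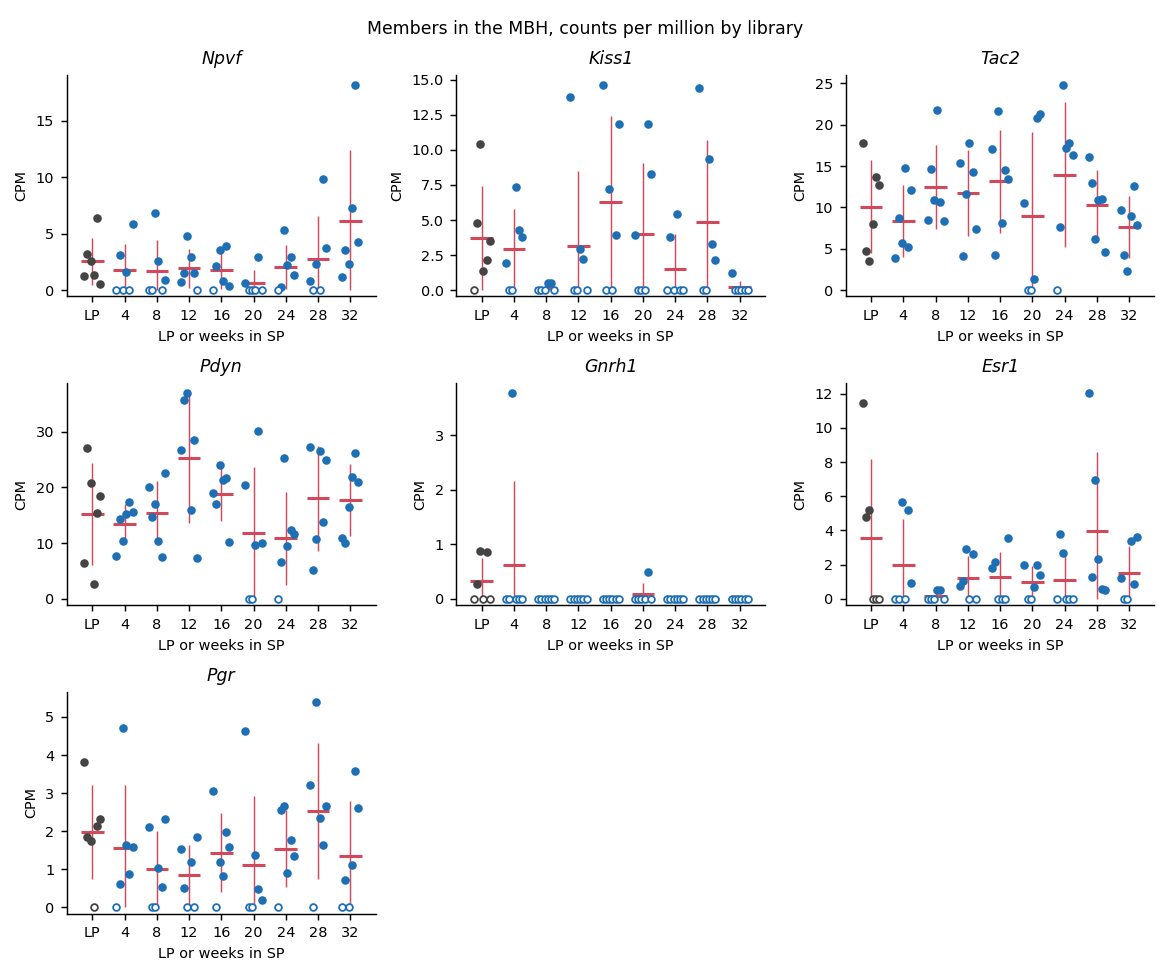
Levels (CPM) of the 7 genes in the MBH by library, in LP (dark points) and after 4 to 32 weeks of SP (blue points), with the mean (horizontal bar) and SD (vertical bar, drawn from 0 upwards) of 6 hamsters and libraries with 0 counts as open circles. *Kiss1* stayed at or below 1.21 CPM in every library of 8 and 32 weeks, and *Npvf* reached 18.2 CPM at 32 weeks.

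As fitted on added isoforms, no MBH change of the 7 genes passed an FDR of 0.1, while with the highest isoform of every gene *Npvf* was called over the 9 groups (adjusted p = 6.2e-07) although its own counts, from 1 isoform, are the same in both fits. Over the 9 groups 0 of 7 were called in edgeR's test, against 0.442% of all genes, with an unadjusted p below 0.05 for *Kiss1* (0.00479) and *Gnrh1* (0.0283), or 2 of 7 against 8.01% of all genes. DESeq2 called 0 and gave 1 unadjusted p below 0.05. In the 8 SP weeks 0 of 56 tests of the members were called, against 0.00992% of all genes in weeks 4 and 12, 0.0198% in week 8, 0.0149% in week 16 and 0.00496% in each later week, and 8 of 56 had an unadjusted p below 0.05, against 4.56% over all genes (DESeq2: 0 and 3). By phase 0 of 28 were called, against 0.114% in early, 0.208% in mid and 0.184% in late SP and 0.139% from mid to late SP, and 3 of 28 had an unadjusted p below 0.05, against 5.23% over all genes (DESeq2: 0 and 1). These 3 were *Gnrh1* in mid and in late SP against LP and *Npvf* from mid to late SP. Of the 84 permutation tests in the MBH, 6 had p below 0.05. When the 9 group means of a gene were put in order, neighbouring means lay within the larger of their SDs for every gene and region, a description that wide SDs and sorted means make likely in any case.

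In the MBH 3 libraries read none of the 7 genes. Replicate 2 of 20 weeks held 5996 counts in all and replicate 1 of 24 weeks 71577. Replicate 3 of 20 weeks held 578516 counts, with the neuronal *Snap25* at 148 CPM and *Pomc* at 58.4 CPM.

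Of the 54 DMH libraries 21 read none of the 6 genes, with a median of 25.75 CPM of *Snap25*, 11 read 1 gene, 8 read 2 and 14 read 3 or more, the last with a median of 90.3 CPM. Of the 10 DMH libraries under 20 CPM of *Snap25*, 1 read a member. *Npvf* was read in 9 libraries, each of which also read *Hcrt*, the orexin precursor of the lateral hypothalamus, and *Pmch*, the melanin-concentrating hormone precursor, had a median of 50.2 CPM in these 9 and 6.39 CPM in the other 45. Library depth differed too, with a median of 1149897 counts in the libraries that read none and 3191374.5 in those that read 3 or more. It did not rise steadily, with medians of 1956187 counts for 1 gene read, 1434410 for 2, 1109826 for 3 and 5736662 for 4. The neuronal and lateral hypothalamic RNA thus moved together with the members, and depth did so only in part. They cannot be told apart here, and their part in the results was not tested.

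**Figure D3:**
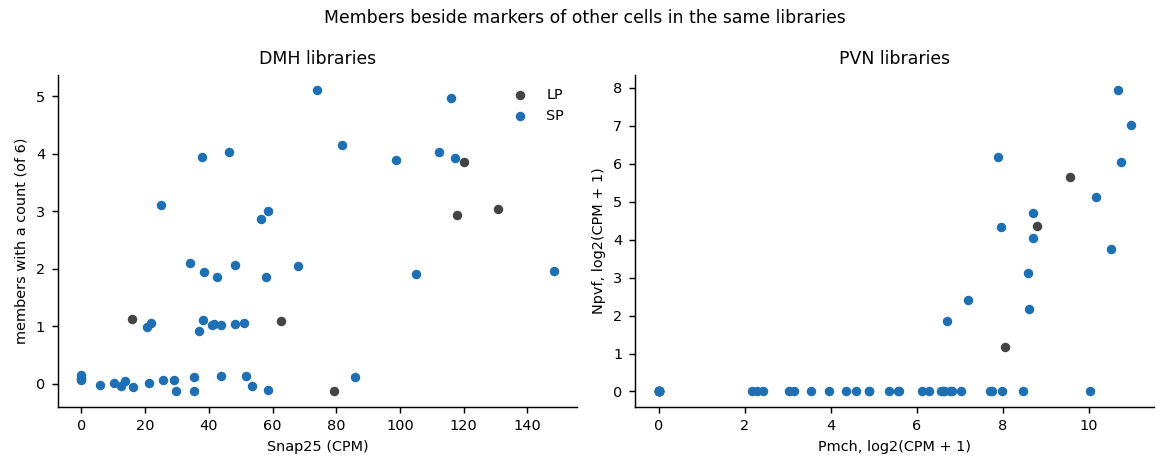
Left, number of the 6 members with a count in each DMH library against *Snap25* (CPM), with points shifted slightly up or down so that they do not hide each other. Right, *Npvf* against *Pmch* in each PVN library, both as log2(CPM + 1). DMH libraries under 20 CPM of *Snap25* read no member except 1, and PVN libraries under 100 CPM of *Pmch* had no *Npvf* count.

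*Npvf* in the DMH had 3 counts in 1 LP library (0.218 CPM). In early SP it had 22 counts in replicate 1 of 4 weeks (1.60 CPM) and 1 in replicate 2 of 8 weeks (0.489 CPM), and in mid SP 2 counts in 1 of 18 libraries (0.0981 CPM). In late SP it was read in 5 of 18: 20 counts in replicate 2 of 24 weeks (0.673 CPM), 12 counts in replicates 1, 3 and 6 of 28 weeks (5.53, 0.271 and 0.574 CPM) and 1 count in replicate 4 of 32 weeks (0.3595 CPM). The other 45 libraries were at 0, and the highest CPM, 5.53, rests on 2 counts.

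*Npvf* was the member that passed an FDR of 0.1 in the DMH. Over the 9 groups 1 of 6 members was called in edgeR's test, against 4.62% of all genes, with an adjusted p of 0.0879. The unadjusted p of this test was below 0.05 for 2 of 6, *Npvf* (0.00343) and *Esr1* (0.0243), against 14.7% of all genes. DESeq2 called 0 of 6 and gave 0 with an unadjusted p below 0.05. From mid to late SP 1 of 6 was called, against 1.00% of all genes: *Npvf* had a mean of 0.00545 CPM in mid and 0.412 CPM in late SP and a log2 fold change of 2.66 (standard error 0.72, adjusted p = 0.0644), which rests on the 2 counts of mid SP. Its permutation p was 0.0450 (2-sided, 100000 permutations, n = 18 hamsters each, not adjusted) and 0.0707 without replicate 1 of 28 weeks, where the late mean was 0.1105 CPM. The permutation p rose above 0.05 in 18 of 36 cases with 1 library left out. Without the libraries under 20 CPM of *Snap25* the adjusted p over the groups was 0.208 and the permutation p 0.109. From mid to late SP *Npvf* was also not called at an FDR of 0.05, or with the edgeR 4 form, DESeq2, the replicate block or the highest isoform. Nor was it called with 20 weeks placed in late SP, or without replicate 2, 3, 4 or 6. With filterByExpr it was left out before any test. Against LP, 0 of 6 members were called in early (0.733% of all genes), mid (0.761%) and late SP (0.642%) in edgeR's test. Of the 24 phase tests, late against mid SP included, 4 had an unadjusted p below 0.05, against 7.29% over all genes (DESeq2: 0 called and 0 below 0.05). They were *Esr1* in mid and in late SP against LP, and *Npvf* and *Pdyn* from mid to late SP. In the weeks 0 of 48 tests were called, against 0% of all genes at 4, 8, 12 and 16 weeks, 0.00458% at 20, 24 and 32 weeks and 0.0183% at 28 weeks, and 10 of 48 had an unadjusted p below 0.05, against 6.85% over all genes (DESeq2: 0 and 0). Those 10 include *Esr1* at 8, 12, 16, 20, 24 and 28 weeks, each against the same 6 LP libraries at 0.

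*Tac2* in the DMH was at 0.634 ± 0.429 CPM in LP, read in 5 of 6 libraries, with its highest mean at 8 weeks, 1.205 ± 1.04 CPM, and its lowest at 20 weeks, 0.189 ± 0.293 CPM. By phase it was at 1.05 ± 1.06 in early, 0.738 ± 1.025 in mid and 0.780 ± 1.31 CPM in late SP. *Pdyn* was at 0.216 ± 0.253 CPM in LP and between 0.0488 ± 0.120 CPM at 20 weeks and 0.883 ± 1.82 CPM at 24 weeks, where 136 of its 139 counts came from replicate 2. *Esr1* was at 0 in all 6 LP libraries, which allows up to 0.0933 CPM, and was read in 8 of 48 SP libraries, up to 1.025 CPM. In edgeR's test its log2 fold change from LP was 2.97 (standard error 0.89, adjusted p = 0.13) in mid SP. In late SP it was 2.66 (0.85, adjusted p = 0.211). The exact permutation p of *Esr1* against LP was 0.653 in mid and 0.804 in late SP (2-sided, not adjusted). *Pgr* had 0.108 ± 0.127 CPM in LP and 1 count in the 12 libraries of early SP (0.0171 ± 0.0592 CPM; exact permutation p = 0.0441, 2-sided, not adjusted), which became 0.132 without replicate 1 of LP. *Gnrh1* had 1 count, at 24 weeks. Of the 62 permutation tests in the DMH, 2 had p below 0.05.

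The MBH and DMH of the same hamsters can be set side by side, since their tables share 84377 isoform identifiers. However, TMM scaling was done within each region, so that the CPM of the regions are not on a common scale. In the DMH this scaling was wide. Replicate 4 of LP held 2396720 counts and was scaled to 13780000, and replicate 2 of 20 weeks held 2035411 and was scaled to 173100. The part of the scaling in the differences below was not tested. *Tac2* was at 10.7 ± 6.13 CPM in the MBH and 0.8095 ± 1.08 CPM in the DMH (SD, n = 54 hamsters) and higher in the MBH of 51 hamsters, against 1 with the opposite order. *Pdyn* was at 16.3 ± 8.73 and 0.420 ± 0.885 CPM, likewise higher in the MBH of 51 hamsters and lower in 1. *Npvf* was at 2.38 ± 3.14 and 0.182 ± 0.785 CPM and higher in the MBH of 37 hamsters and in the DMH of 4, although its cells are known from the dorsomedial nucleus. *Pgr* was higher in the MBH of 40 hamsters and in the DMH of 3, *Esr1* of 31 and 4, and *Gnrh1* of 5 and 1. *Snap25* was also higher in the MBH, with medians of 198 and 43.2 CPM. *Tac2* was the only member read in at least 27 libraries of both regions, and no change with photoperiod was detected in its difference between the regions on the log2(CPM + 1) scale, which was 2.63 in LP, 2.54 in early, 2.56 in mid and 2.70 in late SP (exact permutation tests, p = 0.872, 0.904 and 0.917, n = 6 LP hamsters).

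**Figure D4:**
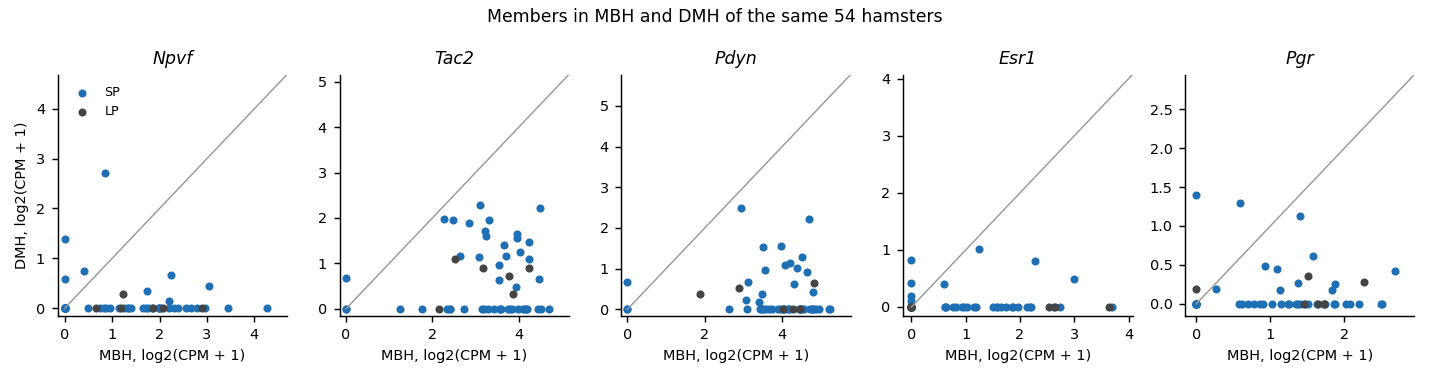
Level of 5 members in the MBH (x axis) and DMH (y axis) of the same 54 hamsters, both as log2(CPM + 1), in LP (dark) and SP (blue). CPM were scaled within each region, and the line marks equal CPM. *Tac2* and *Pdyn* lay below the line in 51 hamsters and *Npvf* in 37.

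The PVN table is on an annotation of its own, with 0 isoform identifiers shared with the others, so its levels are compared only among PVN libraries. *Npvf* was read in 16 of 54 PVN libraries, and where it was read its level ranged widely. In LP 3 of 6 libraries read it, at 1.24, 19.6 and 49.8 CPM. At 4 weeks SP 2 libraries read it, at 247.5 and 65.1 CPM with 94 and 33 counts, and the other 4 were at 0. The libraries of week 8 that read it were at 25.05 and 4.29 CPM, those of week 12 at 34.1 and 2.66 CPM and 1 of week 20 at 19.1 CPM, while none of week 16 did, which allows up to 4.055 CPM. In late SP it was at 129.7, 15.6 and 12.5 CPM in week 24, at 71.9 and 3.48 CPM in week 28 and at 7.65 CPM in 1 library of week 32.

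The libraries with *Npvf* were those with lateral hypothalamic RNA. All 16 had at least 100 CPM of *Pmch*, of the 24 libraries that did, and none of the 30 libraries below 100 CPM read *Npvf*, a threshold chosen after the values were seen. The median of *Pmch* was 414.8 CPM with and 21.3 CPM without *Npvf*, and *Hcrt* was read in 15 of the 16. Over the 9 groups *Npvf* had an unadjusted p of 0.000135 in edgeR's test and an adjusted p of 0.193, and in DESeq2 it was not called (adjusted p of 1). It was called with the edgeR 4 form (0.00408), the replicate block (0.00866), the highest isoform of every gene (4.39e-31) and without replicate 6 (0.092). Its permutation tests against LP gave no p below 0.05, with means of 11.8 ± 20.2 CPM in LP, 28.5 ± 71.6 in early, 3.10 ± 8.955 in mid and 13.4 ± 33.6 CPM in late SP (exact p = 0.768, 0.0917 and 0.898, n = 6 LP hamsters).

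*Pdyn* was the member read most often in the PVN, in 3 to 6 libraries of each group. Its mean was 7.78 ± 9.06 CPM in LP, 17.2 ± 18.9 CPM by week 4, 6.875 ± 6.33 CPM by week 8, 19.9 ± 15.5 CPM by week 12, 6.20 ± 10.4 CPM by week 16 and 8.46 ± 7.80 CPM by week 20. In late SP it was 11.5 ± 6.80 CPM by week 24, 19.6 ± 7.70 CPM by week 28 and 12.2 ± 7.11 CPM by week 32. At 28 weeks the libraries ran from 13.9 to 34.6 CPM with a median of 17.2, and 1 of them lay above every LP library, of which 2 were at 0 and the highest at 22.4 CPM. The exact permutation p at 28 weeks was 0.0390 (2-sided, not adjusted), but 0.0801 without replicate 1 of LP, the library of 159 counts, where the LP mean was 9.33 CPM. This was the 1 of 65 permutation tests in the PVN with p below 0.05.

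The remaining members had a few counts each in the PVN. *Pgr* was read in 22 libraries with 50 counts in all, at 4.29 ± 4.91 CPM in LP and 3.12 ± 5.625 in early, 3.59 ± 6.95 in mid and 4.12 ± 7.015 CPM in late SP. *Gnrh1* was read in 9 libraries with 20 counts, of which 6 lay in replicate 3 of 4 weeks (23.2 CPM) and 4 in replicate 3 of 28 weeks (19.3 CPM). *Esr1* had 12 counts in 10 libraries and *Kiss1* 2 counts in 2. Over the 9 groups 0 of 6 members were called in edgeR's test, against 0.0158% of all genes, and 2 of 6 (*Npvf* and *Gnrh1*) had an unadjusted p below 0.05, against 6.15% of all genes (DESeq2: 0 called and 0 below 0.05). In the weeks 0 of 48 tests were called, against 0% of all genes in each of the 8 weeks, and 0 of 48 had an unadjusted p below 0.05, against 3.67% over all genes (DESeq2: 0 and 0). By phase 0 of 24 were called, against 0.00527% in early, 0.0105% in mid and in late SP and 0% from mid to late SP, and 0 of 24 had an unadjusted p below 0.05 in edgeR, against 4.11% over all genes (DESeq2: 0 and 0, over 20 tests).

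**Figure D5:**
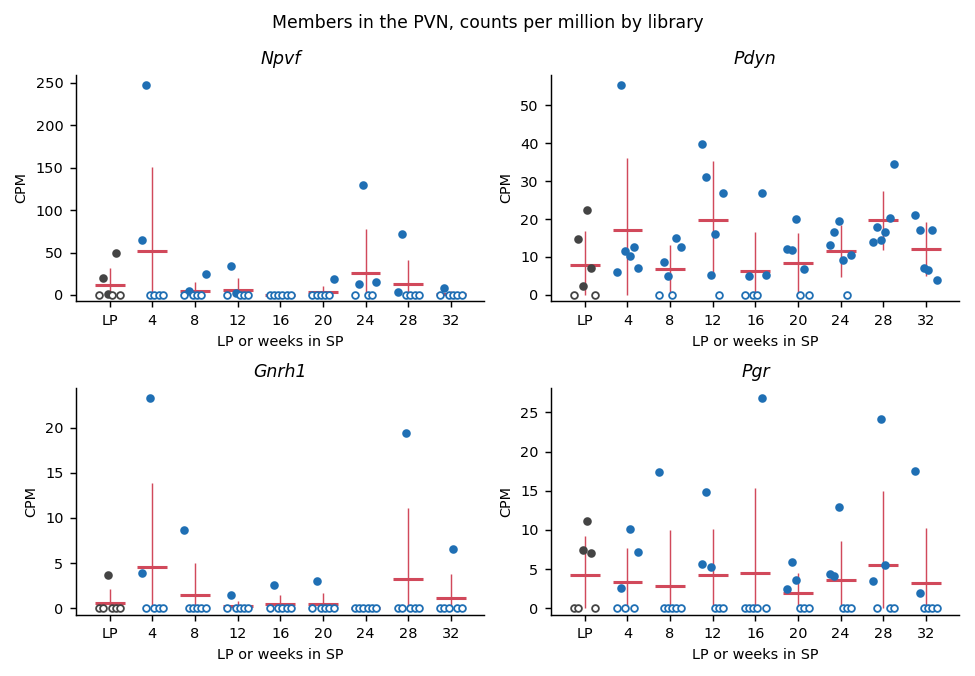
Levels (CPM) of *Npvf*, *Pdyn*, *Gnrh1* and *Pgr* in the PVN by library, in LP (dark) and after 4 to 32 weeks of SP (blue), with the mean (horizontal bar) and SD (vertical bar, drawn from 0 upwards) of 6 hamsters and libraries with 0 counts as open circles. *Npvf* reached 247.5 CPM at 4 weeks in 1 library and was at 0 in all 6 libraries of 16 weeks.

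Around these members stand their receptors, other steroid receptors and coregulators, steroid enzymes, other peptides and transcription factors of these neurons, a list of 27 genes. Of these, 25 are in the MBH table, 24 in the DMH and 22 in the PVN, and 17, 6 and 10 were read in at least 27 of 54 libraries. In the MBH the kisspeptin receptor *Kiss1r* had a median of 5.70 CPM (read in 44 libraries), the dynorphin receptor *Oprk1* 2.64 CPM (36) and the 5-alpha-reductase *Srd5a1* 3.49 CPM (43), while the neurokinin B receptor *Tacr3* was read in 25 libraries with 33 counts and the aromatase *Cyp19a1* in 2.

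Over the 9 groups 0 of 25 genes of the list were called in the MBH, 1 of 24 in the DMH and 0 of 22 in the PVN in edgeR's test, against 0.442%, 4.62% and 0.0158% of all genes, and 3, 4 and 3 had an unadjusted p below 0.05, against 8.01%, 14.7% and 6.15% (DESeq2 called 0 in each, with 0 unadjusted p below 0.05). The 1 was *Gper1*, the membrane estrogen receptor, in the DMH, with an adjusted p of 0.0879, 46 counts in 9 libraries and at most 1.11 CPM. In the weeks 0 of 200, 0 of 192 and 0 of 176 tests in the MBH, DMH and PVN were called, and 10, 15 and 12 had an unadjusted p below 0.05, against 4.56%, 6.85% and 3.67% over all genes (DESeq2: 0 called, and 7, 1 and 0). By phase 0 of 100, 0 of 96 and 0 of 88 were called, with 4, 3 and 7 unadjusted p below 0.05, against 5.23%, 7.29% and 4.11% over all genes (DESeq2: 0 called, and 3, 0 and 0). The median log2 fold change over the list was 0.00 in early, 0.20 in mid and 0.21 in late SP in the MBH, where the median over all genes was 0.00 in each. In the DMH it was -0.17, -0.14 and -0.17, beside -0.08, -0.10 and -0.06 over all genes, and in the PVN 0.21, 0.21 and 0.08, beside 0.09, 0.04 and 0.03. From mid to late SP it was -0.08 in the MBH, 0.02 in the DMH and -0.10 in the PVN, beside 0.01, 0.03 and 0.00.

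Members were also compared with every gene read in at least 27 of the 54 libraries of a region, by the Spearman correlation of CPM over these libraries, which share depth and cell content. In the MBH, over 12038 genes, the most alike were *Limd2* (0.60), *Abcg4* (0.60) and *Scg5* (0.59) for *Npvf*, *Hmx2* (0.59), *Shisal2a* (0.59) and *Npy* (0.56) for *Kiss1*, and *Gpatch11* (0.64), *Tmem245* (0.64) and *Prpf4b* (0.63) for *Tac2*. They were *Tmem59l* (0.65), *Rasgrf2* (0.62) and *Reep5* (0.62) for *Pdyn*, *Echdc2* (0.56), *Gdap2* (0.54) and *Hacl1* (0.53) for *Esr1*, and *Tmem179* (0.64), *Taf3* (0.63) and *D430019H16Rik* (0.63) for *Pgr*. With the library count itself the members correlated at 0.13 to 0.35. Among the members, the highest correlations were 0.44 between *Npvf* and *Pdyn*, 0.38 between *Kiss1* and *Tac2* and 0.37 between *Esr1* and *Pgr*, and *Kiss1* and *Npvf* were at -0.05. In the DMH *Tac2* was most like *Tgs1* (0.82), *Ncaph2* (0.81) and *Ifitm10* (0.80) among 7158 genes. Each of these was read in only 28 of 54 libraries and *Tac2* in 27, and the remaining libraries were at 0. *Tac2* correlated there at 0.39 with the library count and at 0.46 with *Snap25*. In the PVN *Pdyn* was most like *Nrsn2* (0.58), *Znf414* (0.55) and *Actr1a* (0.53) among 10077.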

How the data were processed

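Of the deposited tables, those of MBH, DMH and PVN were used. The authors called bases with guppy, removed adapters with Porechop, filtered reads with Filtlong, aligned them to the mouse genome with Minimap2, estimated isoform counts with Salmon and removed low transcripts with EdgeR. The deposited unit is the expected count per isoform, without normalization, and 98.5% to 99.59% of values above 0 were whole (to within 1e-06). For the PVN table, the annotation was not given in the sources used here. Its *Npvf* isoform has an identifier with the prefix XM, where that of the MBH and DMH has the prefix NM. Whether the PVN counts also rest on the mouse genome is therefore not known here.

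Expected counts were summed per symbol and rounded. All libraries were kept, and 0 columns were left unmapped. The fit was edgeR 4.0.16 (R 4.3.3, quasi-likelihood F-test in the form of edgeR 3, TMM, no filter), with 54 libraries per tissue and adjustment over all genes of the table at an FDR of 0.1. Member levels were compared by 2-sided permutation tests in Python 3.11.15 and numpy 2.4.6, exact (924 splits of 6 against 6) or, for late against mid SP, with 100000 permutations, 211 in all and unadjusted. The labels make each library a separate hamster within a tissue. A count of 0 allows 3 counts over a group, for counting error only.

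The named genes are the 7 members, the genes of the list of 27 that pass a test or stand beside a member, and the 3 genes most like each member read in at least 27 libraries. The members and lists were chosen with earlier results of these data known. Alternatives were an FDR of 0.05, DESeq2 1.42.0 and its size factors, filterByExpr, the edgeR 4 form, replicate number as a block, the highest isoform, 20 weeks placed in late SP, library totals, log2(CPM + 1), a pseudocount of 0.5, each replicate left out and libraries under 10000 counts left out. Leaving out DMH libraries under 20 CPM of *Snap25*, and single libraries in the permutation tests, was chosen after seeing the data. Tests were also run on simulated data.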

Additional observations from a re-analysis of the deposited data

Results flagged for a closer look

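Single libraries stood far from the other 5 of their group (Dixon's criterion at 95%) in 11 of the 72 groups of members read in at least 27 libraries, where chance flags about 5% of groups of normally distributed values, a share that does not hold for groups mostly at 0, such as *Kiss1* and the DMH *Tac2* at 32 weeks, each with counts in 1 library. In the MBH these were *Npvf* at 20 weeks (2.97 CPM, replicate 5) and at 32 weeks (18.2 CPM, replicate 5), *Kiss1* at 12 weeks (13.8 CPM, replicate 1) and at 32 weeks (1.21 CPM, replicate 1, from 1 count), and *Pgr* at 4 weeks (4.71 CPM, replicate 3) and at 20 weeks (4.63 CPM, replicate 1). In the DMH they were *Tac2* at 24 weeks (3.84 CPM, replicate 2) and at 32 weeks (2.88 CPM, replicate 4). In the PVN they were *Pdyn* at 4 weeks (55.3 CPM, replicate 2), at 16 weeks (26.8 CPM, replicate 5) and at 28 weeks (34.6 CPM, replicate 6). In each case the library was the highest of its group.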

How the results depend on the processing

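Estimated counts of a few reads limit every value here. No result changed direction. Of members called over the 9 groups, the MBH had 1 with the highest isoform (*Npvf*) in place of 0. The DMH had 0 in place of 1 at an FDR of 0.05 and with filterByExpr, the edgeR 4 form, DESeq2, the replicate block and without libraries under 20 CPM of *Snap25*, and 0 to 1 without single replicates. With filterByExpr the DMH *Npvf* was left out before any test. The PVN had 1 (*Npvf*) in place of 0 with the edgeR 4 form, the replicate block and the highest isoform, and 0 to 1 without single replicates. In the weeks, 1 PVN test was called with the highest isoform (*Npvf* at 4 weeks) in place of 0. By phase, the DMH had 0 in place of 1 under the same settings and with the highest isoform and 20 weeks in late SP, and 0 to 1 without single replicates. The replicate block changed no other call. Replicate numbers do not mark the same hamster in different groups, and same-numbered libraries correlated at 0.05, 0.064 and 0.035 on average in the MBH, DMH and PVN, with 26, 15 and 23 of 54 most like their own number, where 9 would be if the numbers carried nothing. What same-numbered libraries share was not tested, and the permutation tests do not use the number. Comparisons with a permutation p below 0.05 went from 6 to 1 in the MBH with the highest isoform, from 2 to 1 in the DMH without libraries under 20 CPM of *Snap25*, and in the PVN from 1 to 0 with library totals and without libraries under 10000 counts and to 2 on the log2(CPM + 1) scale. The cause of these moves was not tested. All genes called over the 9 groups ranged from 4 to 130 in the MBH (89 as reported), from 1 to 1008 in the DMH (1008) and from 0 to 75 in the PVN (3). By phase they ranged from 15 to 130 in the MBH (130), from 0 to 685 in the DMH (685) and from 0 to 179 in the PVN (5), and over the weeks from 6 to 291 (15), from 0 to 11 (7) and from 0 to 16 (0). Over the 9 groups, the lowest count was that of filterByExpr in the MBH (4) and of DESeq2 in the DMH (1).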

Other observations

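The PVN table lists *Tac3*, the name of the neurokinin B gene in other mammals, which was looked up after the values were seen. It had counts in 38 of 54 PVN libraries, with 13.2 ± 14.4 CPM in LP, 19.6 ± 24.2 in early, 9.88 ± 12.45 in mid and 14.9 ± 16.4 CPM in late SP (SD, n = 6, 12, 18 and 18 hamsters). No difference from LP was detected (exact permutation p = 0.570, 0.631 and 0.833).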
